A study of Mus musculus with 12 samples.

Results

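Cytochrome P450 families 1 to 4 made up 68 of the 19261 genes in a table of mouse kidney RNA sequencing. A gene was taken as a member when its symbol read Cyp, a family number from 1 to 4, a subfamily letter and a gene number, with nothing after it. Kidney RNA was sequenced in 12 libraries that fall into 4 groups of 3. Control mice are listed with neither agent. AOS mice were given alginate oligosaccharides, sugars made from a seaweed polymer, at 10 mg/kg over 5 weeks. Busulfan mice had a single dose of 40 mg/kg of this DNA-alkylating drug, and busulfan plus AOS mice had both at the same doses. IRC is the strain name in the labels, which call the tissue cells although the protocol names kidney. They do not say whether libraries came from separate animals, so p-values cover only the spread among these libraries.

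P450 enzymes are membrane-bound haem proteins that take electrons from NADPH through P450 reductase and insert 1 oxygen atom into a substrate. Families 1 to 3 oxidise drugs, toxicants, steroids and arachidonic acid, family 4 hydroxylates fatty acids, and many members are switched on by the receptors AHR, CAR, PXR or PPAR-alpha. In mouse kidney the proximal tubule is the main site of these enzymes, while a larger and partly different set is made by hepatocytes. All 68 members matched the RefSeq annotation of GRCm38.p6 by Entrez identifier. Of these, 15 (all Cyp2c) lie on chromosome 19, 13 each on chromosomes 4 and 7, 9 on chromosome 17, 7 (all Cyp2d) on chromosome 15, 6 (all Cyp3a) on chromosome 5, 2 each on chromosomes 8 and 9, and 1 on chromosome 3.

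Of the 67 members with a complete coding sequence in GENCODE M21, 64 encode an exact match to the 10-residue pattern FxxGxRxCxG (x, any residue). This is the loop whose cysteine binds the haem iron, and members without a match were not examined for a variant of it. The loop is shown for the 3 genes that led the kidney libraries, as 60 coding bases 5′ to 3′ with the cysteine codon in capitals. The stretches are coding bases 1321 to 1380 of Cyp4b1, 1273 to 1332 of Cyp2e1 and 1303 to 1362 of Cyp2j5.
Cyp4b1: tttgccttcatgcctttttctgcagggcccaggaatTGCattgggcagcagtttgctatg
Cyp2e1: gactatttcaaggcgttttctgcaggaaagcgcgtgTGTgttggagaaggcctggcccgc
Cyp2j5: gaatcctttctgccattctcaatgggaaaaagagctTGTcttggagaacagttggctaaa

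Other members differ so little that reads cannot always be assigned, which decides how far their single values can be read. Cyp4a10, Cyp4a31 and Cyp4a32, neighbours on chromosome 4, were 96.0% to 97.2% identical over 1530 coding bases and differed at 77 positions. The window with coding bases 160 to 279 holds 15 of those positions, in capitals.
Cyp4a10: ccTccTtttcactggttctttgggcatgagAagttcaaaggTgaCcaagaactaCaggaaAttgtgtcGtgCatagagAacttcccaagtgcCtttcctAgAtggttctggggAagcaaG
Cyp4a31: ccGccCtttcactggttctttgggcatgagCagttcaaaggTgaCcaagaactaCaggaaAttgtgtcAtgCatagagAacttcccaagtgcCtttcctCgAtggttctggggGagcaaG
Cyp4a32: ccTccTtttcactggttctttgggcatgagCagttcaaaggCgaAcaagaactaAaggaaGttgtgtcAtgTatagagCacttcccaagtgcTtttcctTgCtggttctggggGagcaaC
Cyp2a4 and Cyp2a5 on chromosome 7 were 98.5% identical and differed at 23 of 1485 positions, 6 of which are in capitals in coding bases 550 to 669.
Cyp2a4: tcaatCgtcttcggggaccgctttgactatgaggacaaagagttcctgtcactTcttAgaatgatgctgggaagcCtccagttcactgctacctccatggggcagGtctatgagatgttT
Cyp2a5: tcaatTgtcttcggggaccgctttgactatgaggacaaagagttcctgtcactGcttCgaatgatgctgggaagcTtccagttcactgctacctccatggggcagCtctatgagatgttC
Estimated counts with decimals mark reads that were shared out between genes. Among 17 members with a paralog at 95% identity or more, 2 had whole counts in all 12 libraries, against 16 of the 21 members whose closest paralog was under 85% identical.

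Library totals ranged from 13875942 to 15329347 estimated reads, so a count of 0 allows up to 0.196 to 0.216 CPM, the count scaled by its library total. That limit holds for counting error alone. The members together held 0.992% to 1.31% of the reads. Of the 68, 40 were read in all 12 libraries, and 43 passed the expression filter and were tested among 14428 genes. The 25 untested members had few reads: 16 of them had at most 29 in any library, and the other 9 were high in a single library described later. As a check of the kidney label, 14 proximal tubule markers were all read and summed to 47956 to 74817 CPM. In busulfan replicate 3, 14 adrenal markers summed to 12259 CPM against 12.7 to 24.5 CPM elsewhere, where Cyp11b2, Th and Pnmt were at 0 in the control, AOS and busulfan plus AOS groups. In replicate 3 of busulfan plus AOS, 15 hepatocyte markers summed to 19037 CPM against 78.0 to 1315 CPM elsewhere. These are called the adrenal and the hepatocyte library, and counts of called members are given with and without them.

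No P450 gene passed the test in any comparison: the quasi-likelihood test of edgeR, adjusted by the Benjamini-Hochberg method, called 0 of the 43 tested members higher and 0 lower in all 7. Over all tested genes the same rule called 0.0416% for busulfan against control, 0% for AOS against control, 0% for busulfan plus AOS against busulfan and 0.0693% for busulfan plus AOS against AOS. It called 0.194% for the average busulfan effect (6 libraries with busulfan against 6 without), 0% for the average AOS effect and 0% for the interaction, which asks whether the effect of AOS differed with and without busulfan. The comparisons share libraries, among them the 3 controls, and are not independent. At an unadjusted p under 0.05, in the same order, edgeR counted 4, 3, 16, 20, 8, 8 and 10 members, and over all genes 10.1%, 3.59%, 8.69%, 9.16%, 12.1%, 5.77% and 5.89%. DESeq2 called 1 member for the average busulfan effect (Cyp1b1, with 1.55% of all genes called), 1 for the interaction (Cyp4a31, with 0.0762%) and 0 in the other 5. There it called 0.859%, 0.0693%, 0.166% and 0.617% of all genes in the 4 comparisons of group pairs and 0.146% for the average AOS effect.

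Among the members, 5 genes led the kidney libraries, namely Cyp4b1, Cyp2e1, Cyp2j5, Cyp2a4 and Cyp2j13. They held 76.8% to 90.3% of the member reads of each library. Per length, Cyp4b1 stood highest at 2234 ± 247 FPKM (SD, n = 12), followed by Cyp2e1 at 1581 ± 254, Cyp2j5 at 885 ± 62.1, Cyp2a4 at 444 ± 99.9 and Cyp2j13 at 272 ± 35.3. None of the 5 was called in any comparison. The ranking covers the chosen symbols only. Cyp4a12a, a family 4 gene outside them, averaged 718 normalized CPM with busulfan and 1050 without. Over the 12 libraries Cyp2j13 averaged 723 and Cyp2a4 703. Levels from here on are normalized CPM, given for replicates 1 to 3 of each group.

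Cyp4b1 (chr4:115624698-115647721), which hydroxylates fatty acids and activates protoxicants and which androgens induce in mouse kidney, measured 4349, 3791 and 3877 in control and 4288, 3724 and 4242 with AOS. It measured 4634, 3979 and 3187 with busulfan and 3089, 3884 and 3524 with both agents. The highest and the next to lowest library both belong to the busulfan group, and all groups overlap. Its average busulfan effect was -0.12 ± 0.10 (log2, SE) and its average AOS effect -0.07 ± 0.10, with adjusted p of 0.614 and 0.928 in edgeR.

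Cyp2e1 (chr7:140763819-140774990), which oxidises ethanol, acetone and small toxicants, measured 2472, 2685 and 2979 in control and 2638, 2069 and 2057 with AOS. It measured 2652, 3089 and 2486 with busulfan and 1766, 2269 and 3353 with both. The lowest and the highest value fall in the same group, and the highest is the hepatocyte library. Hepatocytes also make Cyp2e1, and their part in this value was not tested. Its average AOS effect was -0.21 ± 0.15. Without the adrenal and the hepatocyte library it was -0.39 ± 0.11, with an unadjusted p of 0.0053 and an adjusted p of 0.442 in edgeR.

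The Cyp2j genes, arachidonic acid epoxygenases, form a cluster on chromosome 4. Cyp2j5, the main renal member, measured 2347, 2748 and 2745 in control, 2502, 2317 and 2539 with AOS, 2426, 2428 and 1895 with busulfan and 2254, 2314 and 2449 with both. It varied least of the 5, with a coefficient of variation of 9.40% over 12 libraries, and was lowest in the adrenal library. Cyp2j5, Cyp2j6 and Cyp2j9 had decimal counts in every library, although their closest paralogs were only 78.4% to 82.2% identical. If decimals mark shared reads, their single values also include reads shared out between genes. Cyp2j13 measured 699, 758 and 903 in control and 845, 773 and 723 with AOS, against 832, 730 and 615 with busulfan and 628, 563 and 608 with both. All 3 libraries with both agents lay below all 3 with AOS alone, by -0.38 ± 0.13 on the log2 scale, a difference that did not pass (adjusted p = 0.476 in edgeR). Its average busulfan effect was -0.25 ± 0.09 with all libraries. It was -0.20 ± 0.09 when the adrenal and the hepatocyte library were left out. Cyp2j11 ran from 139 in the adrenal library to 260, Cyp2j9 from 115 in the adrenal library to 201 and Cyp2j6 from 57.1 to 96.0. Cyp2j9 illustrates the scales: its mean of 12.3 FPKM against 131 for Cyp2j11 rests on a length of 14175 bases implied by the deposited values, against 1739 bases.

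Cyp2a4, a steroid hydroxylase, and Cyp2a5, a coumarin hydroxylase, share most of their letters, as printed above, and had decimal counts in every library. Cyp2a4 measured 768, 825 and 627 in control, 809, 791 and 835 with AOS, 850, 554 and 279 with busulfan and 722, 649 and 725 with both. Cyp2a5 measured 69.2 to 123 in control, 76.4, 80.3 and 294 with AOS, 92.7 to 124 with busulfan and 85.7, 203 and 91.2 with both. Each gene has an exceptional library, the adrenal one for Cyp2a4 and AOS replicate 3 for Cyp2a5. Their summed level ran from 386 in the adrenal library to 1129 in AOS replicate 3 with a median of 860, and its average busulfan effect was -0.26 ± 0.18 (adjusted p = 0.560 in edgeR).

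Of the 19 members with a median of at least 10 normalized CPM, 6 were lowest in the adrenal library, 31.6% of them, beside 24.8% of the 9353 genes at that level. These were Cyp2a4, Cyp2j5, Cyp2j9, Cyp2j11, Cyp4a10 and Cyp4a31. The proximal tubule markers were also lowest there, at 47956 CPM. In bulk RNA, fewer cells of a type and less RNA per cell cannot be told apart.

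**Figure D1:**
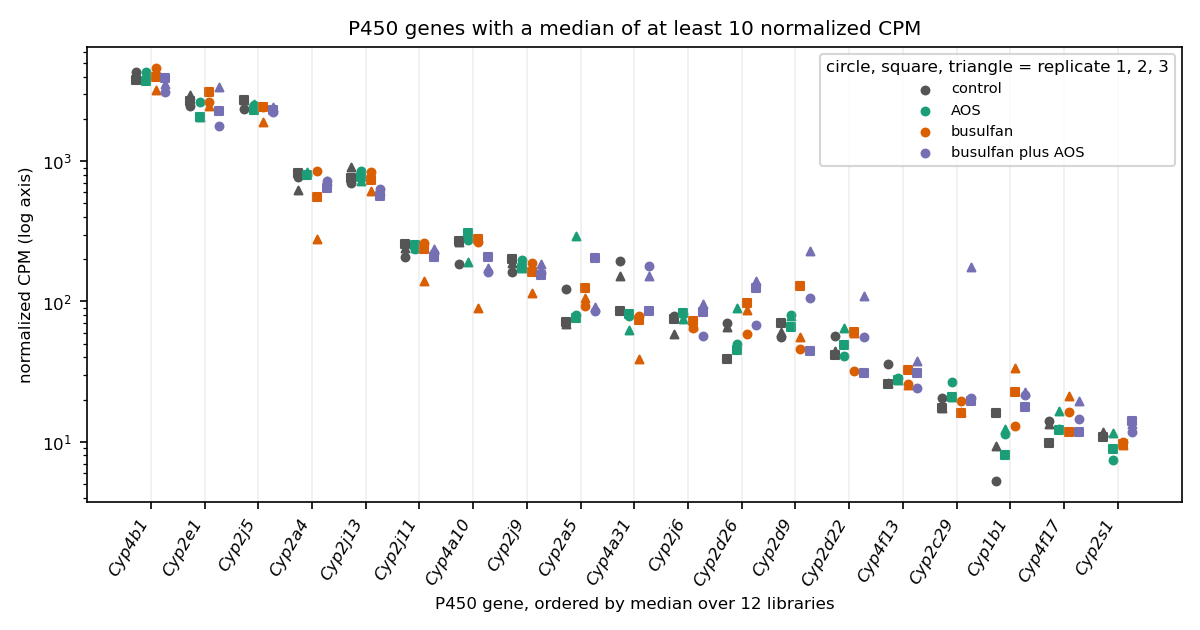
Normalized CPM on a log axis of the 19 P450 genes with a median of at least 10, in 12 libraries coloured by group and shaped by replicate number. Cyp4b1, Cyp2e1 and Cyp2j5 lie at 1766 or more in every library, busulfan replicate 3 (orange triangle) is lowest for 6 genes, and Cyp2c29 has a single high point at 178.

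Among the fatty acid hydroxylases that PPAR-alpha induces, the proportions of Cyp4a10, Cyp4a31 and Cyp4a32 in their estimated reads differed from library to library. Cyp4a31 measured 194, 85.3 and 152 in control, 78.9, 81.1 and 62.5 with AOS, 78.2, 73.6 and 38.9 with busulfan and 178, 85.4 and 153 with both. All controls lay above all libraries given a single agent, and all libraries given both lay above those again. Groups that do not overlap were found for 9 members in busulfan against control (11.3% of all genes), 3 in AOS against control (13%), 5 in busulfan plus AOS against busulfan (8.37%) and 10 in busulfan plus AOS against AOS (17.2%). The interaction for Cyp4a31 was 2.08 ± 0.50 on the log2 scale with an adjusted p of 0.793 in edgeR and 0.0170 in DESeq2.

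The high level of Cyp4a31 with both agents was not seen in the sum of the 3 paralogs. Cyp4a10 measured 186, 271 and 267 in control, 274, 309 and 192 with AOS, 266, 280 and 90.2 with busulfan and 163, 206 and 174 with both. In control replicate 1 and in replicate 1 given both agents, Cyp4a31 was at its group's highest level and Cyp4a10 at its group's lowest. Cyp4a32 measured 61.4 in control replicate 3 and 4.85 to 17.7 in the other 11 libraries. The sum of the 3 measured 385, 364 and 481 in control and 359, 395 and 262 with AOS. It measured 352, 360 and 134 with busulfan and 347, 299.7 and 345 with both agents, and the 134 was the adrenal library. All control libraries lay above all libraries with busulfan, alone or with AOS, and overlapped those with AOS alone, and neither contrast given here was called. Its interaction was 0.50 ± 0.44 with an adjusted p of 0.835, and its busulfan effect against control -0.54 ± 0.31 with an adjusted p of 0.575 (edgeR). The reads of these genes are uncertain between paralogs, and whether the split or the transcripts differ was not tested. Cyp4a14, a further PPAR-alpha target in the same gene cluster, measured 4.88 to 9.97 in control, 3.94 to 10.3 with AOS, 4.93 to 17.1 with busulfan and 5.33 to 7.57 with both.

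**Figure D2:**
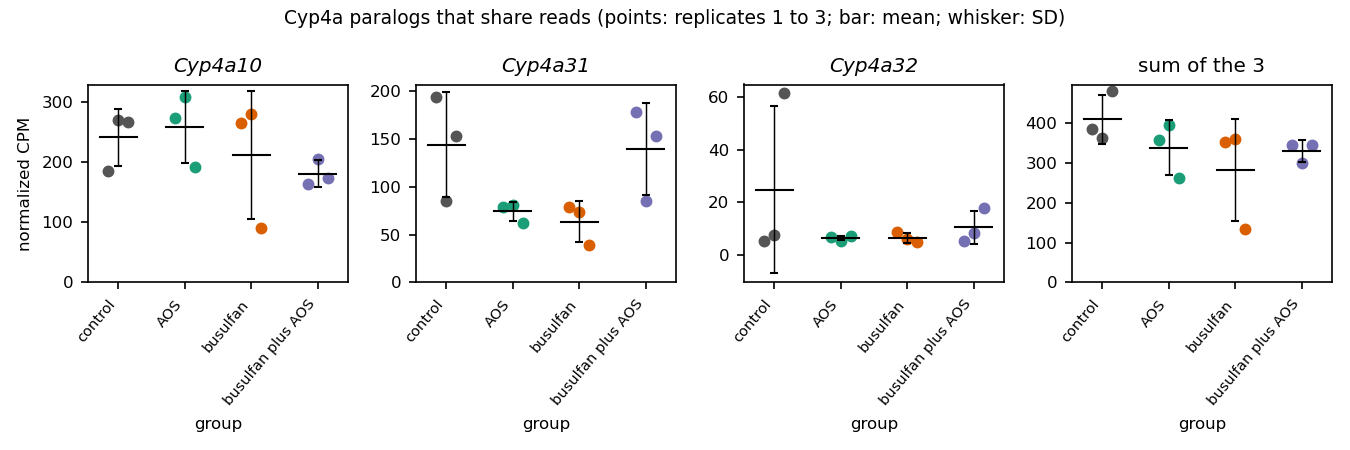
Normalized CPM of Cyp4a10, Cyp4a31, Cyp4a32 and their sum in each library by group, on linear axes with the mean and SD of 3 libraries; the lower whisker of Cyp4a32 in control runs below 0. Points of Cyp4a31 with either agent alone (38.9 to 81.1) lie below those of control, while the sum, from 134 to 481, overlaps between control and AOS and lies below every control library in all libraries with busulfan.

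The genes that AHR switches on were low. Cyp1a1 and Cyp1b1 oxidise polycyclic aromatic hydrocarbons, and Cyp1b1 is typically made by fibroblasts and other mesenchymal cells. Both promoters are shown because they hold GCGTG, the core of the AHR binding site, in the 300 bases from 250 before to 50 after the start site (RefSeq, GRCm38.p6). It was searched on both strands and is in capitals, read as CACGC where it lies on the other strand as in Cyp1b1. Counted per gene, it occurs in promoters of that length of 35.2% of all genes and of 12 of the 57 members matched to the promoter table. The Cyp1a1 window is chr9:57697363-57697662 on the plus strand and the Cyp1b1 window chr17:79715012-79715311 on the minus strand, each printed along the gene.
Cyp1a1: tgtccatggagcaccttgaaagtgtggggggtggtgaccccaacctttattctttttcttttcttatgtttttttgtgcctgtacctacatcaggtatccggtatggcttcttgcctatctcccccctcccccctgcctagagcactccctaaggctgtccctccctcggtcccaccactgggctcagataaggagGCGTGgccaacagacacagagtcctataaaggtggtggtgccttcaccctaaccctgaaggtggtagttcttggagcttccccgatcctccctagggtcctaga
Cyp1b1: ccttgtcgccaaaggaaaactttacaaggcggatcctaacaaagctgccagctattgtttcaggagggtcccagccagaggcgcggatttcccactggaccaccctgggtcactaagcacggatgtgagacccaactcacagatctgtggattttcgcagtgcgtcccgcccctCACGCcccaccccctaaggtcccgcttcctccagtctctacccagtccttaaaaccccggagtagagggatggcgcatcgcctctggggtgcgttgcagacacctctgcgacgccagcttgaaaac

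Cyp1b1 measured 5.23, 16.0 and 9.31 in control, 11.4, 8.01 and 12.3 with AOS, 12.9, 22.7 and 33.8 with busulfan and 21.6, 17.7 and 22.6 with both. The 6 libraries with busulfan averaged 21.9 and the 6 without 10.4, with 1 overlap, control replicate 2 above busulfan replicate 1. This was the member with the lowest adjusted p in edgeR, at 0.253 for an average busulfan effect of 1.08 ± 0.28, and DESeq2 called it at an adjusted p of 0.0164. Without the adrenal and the hepatocyte library the effect was 0.85 ± 0.28 (adjusted p = 0.439 in edgeR). The 12 markers of fibroblasts, pericytes and smooth muscle were all read. They summed to 128 to 204 CPM in control, 168 to 194 with AOS, 153, 381 and 753 in busulfan replicates 1 to 3 and 273 to 292 with both. Within the busulfan and the AOS group Cyp1b1 had the same order as these sums. In control and with both agents the order differed. The part of these cells in the result was not tested.

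Cyp1a1 rested on 14, 7 and 4 reads in control, 12, 12 and 25 with AOS, 20, 21 and 40 with busulfan and 15, 9 and 19 with both. All busulfan libraries lay above all controls, at 1.38 to 2.40 against 0.291 to 1.02 normalized CPM. The difference was 1.52 ± 0.51 on the log2 scale with an adjusted p of 0.416 in edgeR, and 1.22 ± 0.55 without the 2 libraries. The 4 tested AHR targets outside the P450s, which include Nqo1, a quinone reductase, had a median of -0.07 in the same comparison with 0 called.

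Cyp2b10, the usual marker of CAR activity, rested on few reads: 7, 5 and 8 in control, 39, 16 and 14 with AOS, 23, 9 and 14 with busulfan and 3, 2 and 8 with both. All AOS libraries lay above all controls, and all libraries with both agents lay below those of either agent alone. The libraries with both agents overlapped the controls. On the log2 scale AOS against control was 1.71 ± 0.59, busulfan plus AOS against AOS -2.34 ± 0.62 and the interaction -3.40 ± 0.86. None passed, with adjusted p of 1.00, 0.445 and 0.793 in edgeR, and DESeq2 called none of them. Without the adrenal and the hepatocyte library the interaction was -4.31 ± 0.95 with an adjusted p of 0.672. Of 15 tested CAR and PXR targets outside the P450s 0 were called for the interaction, with a median of 0.07. Markers of airway club cells, another site of Cyp2b10, summed to 1.96 CPM in AOS replicate 1, the library with the most Cyp2b10, and to 0 to 0.492 CPM in the other 11, and their part in the result was not tested.

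**Figure D3:**
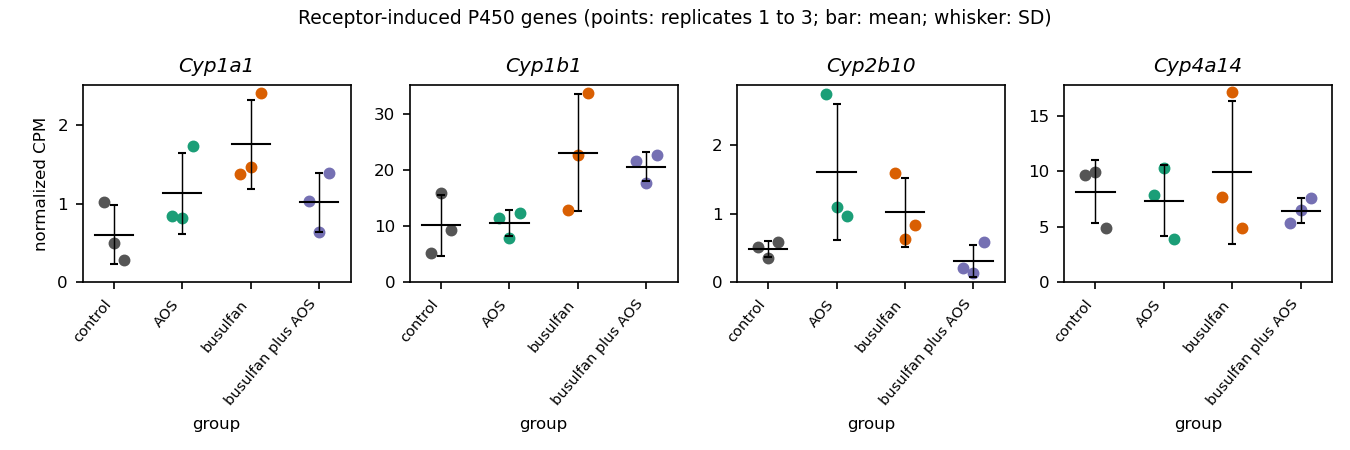
Normalized CPM of Cyp1a1, Cyp1b1, Cyp2b10 and Cyp4a14 in each library by group, on linear axes with the mean and SD of 3 libraries. Cyp1b1 is higher in most busulfan libraries, 12.9 to 33.8 against 5.23 to 16.0 in control. The mean of Cyp2b10 is lowest with both agents, where its 3, 2 and 8 reads overlap the 7, 5 and 8 of control.

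A liver-like set of P450s was read mainly in the hepatocyte library. There, 22 members measured at least 1 normalized CPM and at least 5 times their highest level in the other 11 libraries, the cut-off used, with ratios of 6.62 to 78.8. Among all tested genes 165 did so (1.14%), and 13 of the 22 members were among the tested genes. Because their choice used these levels, they are described and not tested. Just outside, Cyp4v3, a fatty acid hydroxylase, measured 70.2 there and 14.7 in the adrenal library, 4.79 times less.

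Cyp3a11, the main hepatic drug oxidase of its subfamily, measured 269 in the hepatocyte library and 0.769 to 30.0 in the others. Cyp2f2, which activates naphthalene, measured 252 there and 1.05 to 4.58 elsewhere. Cyp3a25 measured 175 against at most 3.52, Cyp2c70, which makes muricholic bile acids in mice, 120 against at most 2.32, and Cyp1a2, an arylamine oxidase, 65.9 against at most 2.25. Cyp2c29 was also read elsewhere, at 16.0 to 26.8, below its 178 in that library. It had decimal counts in every library and a length of 13323 bases implied by the deposited values. Of the 22, 11 are Cyp2c genes of chromosome 19. The rest are Cyp1a2, Cyp2a12, Cyp2d10, Cyp2d40, Cyp2f2, Cyp2r1, Cyp3a11, Cyp3a25, Cyp3a59, Cyp4f14 and Cyp4f15. Cyp2r1, a vitamin D 25-hydroxylase, had 15 reads there and at most 2 in any other library.

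Summed, the 22 reached 1494 CPM in the hepatocyte library, 11.4% of its member reads, and 23.7 to 85.01 CPM elsewhere. In replicate 1 of the same group, where hepatocyte markers summed to 1315 CPM, they summed to 44.2 CPM. The other 46 members summed to 11619 CPM in the hepatocyte library, inside the 9873 to 12358 CPM of the other libraries. The adrenal library had 1 such gene, Cyp2c65, with 29 reads against 0 to 2 elsewhere.

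The promoter of Cyp3a11 is shown as that of the highest of the 22 (RefSeq, GRCm38.p6, chr5:145879805-145880104, minus strand, printed along the gene). Capitals mark matches on either strand to AGGTCA, a nuclear receptor core, and to TATAAA, the TATA box.
Cyp3a11: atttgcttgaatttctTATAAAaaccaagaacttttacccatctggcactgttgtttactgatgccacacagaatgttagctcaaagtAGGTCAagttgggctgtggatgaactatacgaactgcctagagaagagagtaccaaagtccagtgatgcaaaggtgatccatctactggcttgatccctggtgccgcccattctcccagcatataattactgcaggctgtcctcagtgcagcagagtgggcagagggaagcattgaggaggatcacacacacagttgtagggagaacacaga
Counted per gene, AGGTCA lay in promoters of 8 of the 20 matched among these members, of 9 of the 37 other members and of 18.1% of all genes. TATAAA lay in those of 11 of the 20, of 14 of the 37 and of 15.7% of all genes. A match is a description of letters and not a site.

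**Figure D4:**
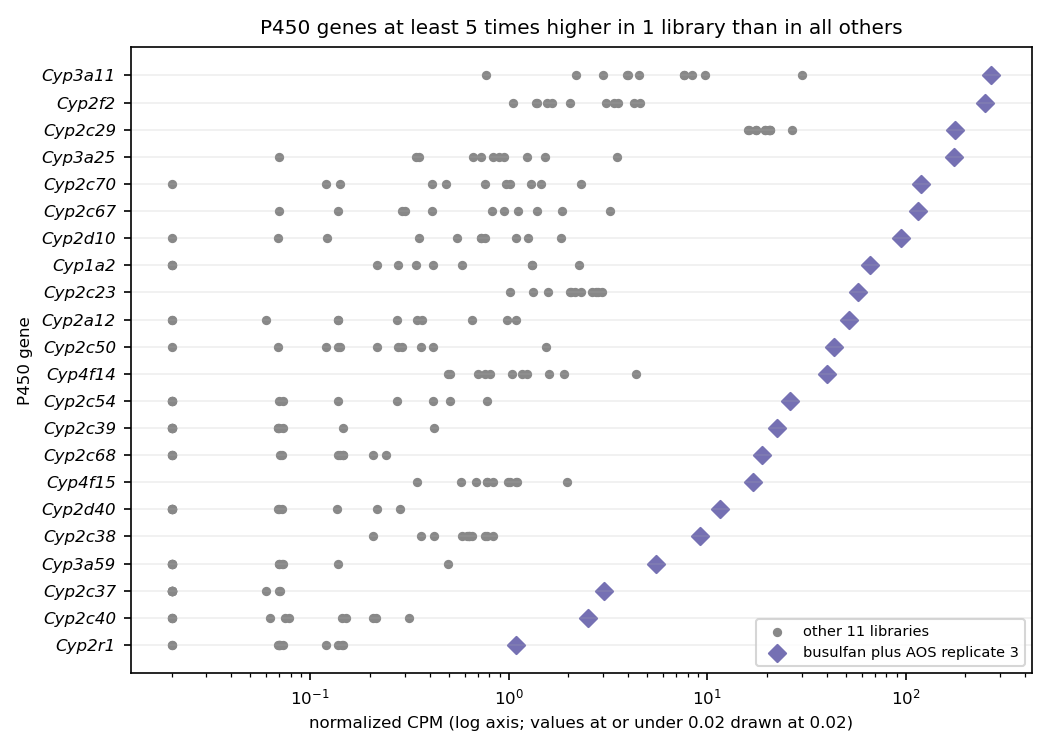
Normalized CPM on a log axis of the 22 P450 genes in replicate 3 of busulfan plus AOS (diamonds) and in the other 11 libraries (grey). Every diamond lies at least 5 times above the highest grey point, by the rule that chose the genes, from 1.09 for Cyp2r1 to 269 for Cyp3a11.

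Counts and medians over the members moved with the hepatocyte library. In busulfan plus AOS against busulfan, 33 of the 43 tested members were above 0, with a median of 0.36 against -0.01 over all genes. The 13 had a median of 5.66 and the other 30 one of 0.15. Choosing the 13 by their level in the hepatocyte library builds in this gap. Leaving out the hepatocyte library alone gave a median of 0.0080, with 4 members at an unadjusted p under 0.05 in place of 16. Leaving out the adrenal library as well gave -0.08 and 5 members. In busulfan plus AOS against AOS the median of 0.64 became -0.18 and the count of 20 became 3 without the hepatocyte library, and without both libraries they were -0.18 and 5. For the average busulfan effect the median of 0.33 became -0.09 without the hepatocyte library and -0.10 without both. The 13 members, chosen for their level in the hepatocyte library, were all above 0 in that effect with every library. Without both libraries, 2 of the 13 were above 0. No member was called without the 2 libraries either, beside 0 to 24 genes of 14476.

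**Figure D5:**
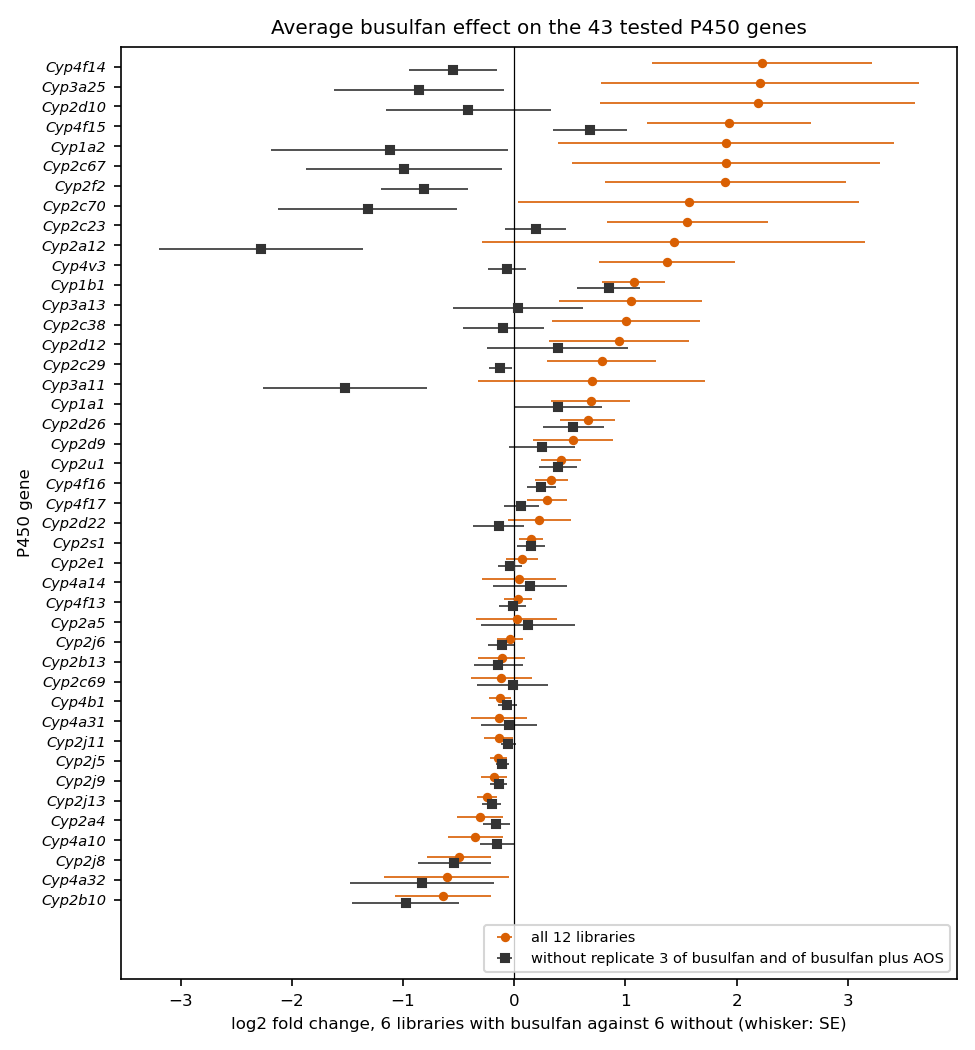
Log2 fold change of the average busulfan effect with SE for the 43 tested P450 genes, with all 12 libraries (circles) and without replicate 3 of busulfan and of busulfan plus AOS (squares). The genes above 1.3 with all libraries fall to or below 0.68 without the 2, while Cyp1b1 moves from 1.08 to 0.85.

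Cyp3a13 ran from 0.0723 in control replicate 2 to 3.86 in the hepatocyte library, and Cyp2d12 from 0.650 in control replicate 2 to 11.1 in the adrenal library, and neither was called. Cyp2d26, a Cyp2d gene of the cluster on chromosome 15, averaged 96.2 in the libraries with busulfan and 60.1 in those without, a difference of 0.66 ± 0.25 on the log2 scale (adjusted p = 0.356 in edgeR; 0.53 ± 0.27 without the 2 libraries). Cyp2s1, an extrahepatic P450 that acts on lipids and retinoids, measured 11.8, 14.01 and 13.4 with both agents. It measured 10.8 to 11.7 in control, 7.47 to 11.6 with AOS and 9.50 to 10.0 with busulfan. The libraries with both agents lay above all 9 others, with an interaction of 0.69 ± 0.22 (adjusted p = 0.793 in edgeR). Cyp4f13 stayed between 24.2 and 37.7 and Cyp4f17 between 9.75 and 21.4, and neither was called.

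Genes around the P450s were tested in the same way: partners, receptors and their targets, haem and arachidonate genes, other P450s and sex-biased kidney genes. Of 106 tested genes in 11 lists, 1 passed in 1 comparison, the average busulfan effect, where 0.194% of all genes were called. At an unadjusted p under 0.05, edgeR counted 12, 0, 18, 18, 24, 6 and 7 of the 106. The comparisons are in the order used above, and the shares of all genes were 10.1%, 3.59%, 8.69%, 9.16%, 12.1%, 5.77% and 5.89%. The gene that passed, Ephx1, the microsomal hydrolase of P450-made epoxides, measured 42.0 to 131 with busulfan and 16.0 to 25.4 without. Its average busulfan effect was 1.93 ± 0.25 (adjusted p = 0.00920 in edgeR). For the average busulfan effect the 8 redox partners had a median of -0.01 and 0 calls, among them Por, P450 reductase, at 238 to 354 in the 12 libraries, and Cyb5a, cytochrome b5, at 721 to 1159. The 15 receptors and factors had a median of 0.05 and 0 calls. Of these, Hnf4a, a hepatic and tubular regulator of P450 genes, ran from 728 to 1162, Ppara from 72.5 to 120 and Ahr from 6.67 to 11.9. Nr1i3, which encodes CAR, was not tested and measured 8.49 in the hepatocyte library against at most 0.358 elsewhere. Medians were -0.08 for 17 PPAR-alpha targets, 0.55 for 15 CAR and PXR targets, 0.05 for 15 other arachidonate enzymes and -0.00 for 12 genes of haem synthesis and breakdown, each with 0 calls. The 10 tested sex-biased kidney genes, pooled without regard to the direction of the bias, had a median of -0.29, 2 above 0 and 0 calls. Of these, Prlr measured 4.63 to 46.6 with busulfan and 3.35 to 10.9 without. Its effect was 2.21 ± 0.57 (adjusted p = 0.244 in edgeR), and that of Hsd17b11 -0.38 ± 0.16 (adjusted p = 0.394). These list medians use all 12 libraries and were not taken without the adrenal and the hepatocyte library. The 2 CAR and PXR targets of lowest p spread widely with busulfan. Gadd45b measured 1.04 to 55.1 with it and 0.800 to 1.62 without, and Aldh1a7 0.692 to 13.4 and 0.578 to 1.55. The lowest adjusted p beside that of Ephx1 was 0.162 for Ltc4s, leukotriene C4 synthase, at 1.22 ± 0.27. Cpox, a haem synthesis enzyme, was at -0.23 ± 0.07 and Vdr, the vitamin D receptor, at -0.14 ± 0.05, with adjusted p of 0.295 and 0.326 in edgeR.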

How the data were processed

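The authors deposited 1 table with an estimated count and an FPKM value per gene and library, so these expected counts and FPKM values are theirs. The second value was read as FPKM because its ratio to count and library total agreed between libraries within 0.287%. The genome build is mm10 per the submitters' processing notes; for aligner, counter and strandedness the sources used here give nothing. Of the counts, 76.8% to 78.8% were whole within 0.005. Counts were rounded, scaled by TMM, filtered with edgeR's expression filter and fitted with edgeR 4.0.16 (R 4.3.3, quasi-likelihood, 1 mean per group, 12 libraries, 8 residual degrees of freedom, biological coefficient of variation 26.8%). P-values are two-sided, adjusted over 14428 genes, with 0.05 as the threshold. Normalized CPM uses the TMM-scaled total; marker and set sums use the library total. Alternatives were DESeq2 1.42.0, limma 3.58.1 (voom, and log2(FPKM + 1) or + 0.1), other scalings and filters, a replicate block, fewer libraries, and summed paralogs, the last chosen after seeing the data. The fit was tested on simulated data that held no counterpart of the adrenal or the hepatocyte library, and no result here draws on that test. The members, gene lists, doubted libraries and the rule for named genes were chosen with earlier results of these data known. The rule takes called members, members with a mean of at least 10 normalized CPM, up to 4 per library at least 5 times above all others, 8 reference genes, and called or the 2 lowest-p genes of each list; Cyp2r1, Por, Hnf4a, Ppara, Ahr, Nr1i3, Cyp7b1, Cyp3a13 and Cyp2d12 were named after their values were seen. Library pairs differed by at least 5.95 times the sampling variance, so none was counted as a duplicate.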

Additional observations from a re-analysis of the deposited data

How the results depend on the processing

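The count of called P450 genes was 0 in 170 of 172 combinations of comparison and alternative, each library left out in turn included (0 to 0), and 1 with DESeq2 for the average busulfan effect and for the interaction. Of 370 settings of 16 named fold changes, 361 kept direction and side of the threshold, and DESeq2 alone made calls, of Cyp1b1 at 1.08 and Cyp4a31 at 2.08. Reversed were, with both doubted libraries left out, Cyp1a2 (-1.61) and Cyp2c67 (-0.37) in busulfan plus AOS against busulfan and Cyp4v3 (-0.113) in busulfan plus AOS against AOS. With 1 library left out in turn these ran from -1.01 to 11.3, from -0.0550 to 7.60 and from -0.114 to 2.62, each lowest without replicate 3 of busulfan plus AOS. Cyp4a32 in AOS against control ran from -2.43 to 0.00389, the latter without control replicate 3, the library where it is high. With the replicate number as a block, 0 members were called in all 7 comparisons; the numbers pair no samples by the labels, 4 of 18 same-numbered pairs correlated over 0.1, and 4 of 12 samples correlated best with their own number. Over all genes the calls depended on the setting: 0 to 195 for busulfan against control, 18 to 223 for the average busulfan effect, 1 to 89 for busulfan plus AOS against AOS, 0 to 26 for busulfan plus AOS against busulfan, 0 to 10 and 0 to 21 for AOS against control and on average, and 0 to 11 for the interaction. Depth limits members with few reads, such as Cyp2b10 and Cyp1a1.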

Other observations

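Some P450 genes outside the chosen symbols were read too. Cyp4a12a, the arachidonic acid hydroxylase that androgens induce in mouse kidney, measured 1224, 1038 and 1419 normalized CPM in control, 1021, 889 and 709 with AOS, 1169, 611 and 571 with busulfan and 546, 546 and 863 with both. All controls lay above all AOS libraries and above all libraries with both agents, and 0 comparisons passed in edgeR; the average busulfan effect was -0.53 ± 0.20 with an adjusted p of 0.360. Its paralog Cyp4a12b, 98.5% identical in coding sequence, measured 66.3 in control replicate 3 and 2.45 to 8.90 in the other 11 libraries, the same library in which Cyp4a32 reached 61.4. Cyp7b1, an oxysterol hydroxylase, measured 25.5 in the adrenal library and 143 to 394 elsewhere. Cyp24a1, which inactivates vitamin D, measured 81.2, 52.4 and 116 with both agents and 14.5 to 53.5 in the other 9 libraries.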
